A study of Homo sapiens with 6 samples.

Results

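The S100 calcium-binding proteins are small EF-hand proteins, and 10 of their genes were followed here: S100A2, S100A3, S100A4, S100A6, S100A8, S100A9, S100A10, S100A11, S100A13 and S100A16. A gene was taken by its symbol in the deposited table of 74852 genes, of which 23187 carry a symbol, and each of the 10 symbols was found in 1 row only. The table lists 21 S100 genes in all, and the 11 that are not members are used below for comparison.

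The study silenced NEK2, a mitotic serine/threonine kinase, in MDA-MB-231 cells, a human triple-negative breast cancer (TNBC) line with a mesenchymal phenotype, and asked how the transcriptome responds. The si-CTRL group (3 libraries) received a pool of siRNAs with no target and the si-NEK2 group (3 libraries) a pool of siRNAs against NEK2, both delivered with Lipofectamine in high-glucose medium, with harvest 24 h after the second of the transfections according to the sample records (the methods time the harvest otherwise). PolyA RNA was sequenced. NEK2 itself was left at 10% of its si-CTRL level. The knock-down was transient, was made in 1 cell line and used pooled siRNAs, so that loss of NEK2 and any other action of the pool cannot be told apart. A cross-reference to further records stands only in those of si-CTRL, and the sources used here do not give whether si-CTRL and si-NEK2 were prepared together. Nothing states how separate the 3 cultures of a group were, so that p-values measure the spread between these libraries, which may be technical.

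S100 proteins work mostly as dimers. On binding calcium, most of them expose a hydrophobic cleft that grips a partner, such as an annexin, a myosin heavy chain or a phosphatase. Several are also released from cells and act on surface receptors such as AGER (RAGE) and TLR4, and S100A4 in particular has long been studied in breast cancer for its link to motility and metastasis. Most of the genes lie side by side on chromosome 1 in and around the epidermal differentiation complex, a region rich in genes of the skin barrier.

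Promoters of the members differ in their core elements, and some are shown here to set the genes with most and least change beside those without any reads, all within 1 interval of chromosome 1. Sequences are from RefSeq (GRCh38.p14), read 5′ to 3′ on the strand of the gene, and hold the 60 bases before an annotated start, with the letters TATAA, the core of a TATA element, in capitals. The windows are chr1:153545807-153545866 (minus strand) for S100A4, chr1:153535992-153536051 (minus) for S100A6, chr1:151993860-151993919 (minus) for S100A10, chr1:152037005-152037064 (minus) for S100A11, chr1:153627506-153627565 (minus) for S100A13, chr1:153391074-153391133 (minus) for S100A8 and chr1:153357794-153357853 (plus) for S100A9.
S100A4: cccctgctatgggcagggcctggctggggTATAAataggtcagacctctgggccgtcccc
S100A6: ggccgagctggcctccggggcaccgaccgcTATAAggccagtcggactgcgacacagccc
S100A10: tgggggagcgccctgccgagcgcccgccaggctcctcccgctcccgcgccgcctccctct
S100A11: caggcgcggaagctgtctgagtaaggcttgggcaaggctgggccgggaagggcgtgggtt
S100A13: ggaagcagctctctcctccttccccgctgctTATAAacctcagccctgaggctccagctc
S100A8: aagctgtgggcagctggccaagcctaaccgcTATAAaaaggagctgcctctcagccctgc
S100A9: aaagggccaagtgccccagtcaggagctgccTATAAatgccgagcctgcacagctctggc

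All 10 members matched the promoter table, with 16 annotated starts. TATAA on the gene's strand was found before 1 start each of S100A4, S100A6, S100A8, S100A9 and S100A13, between 29 and 31 bases from it, that is in 5 of the 16 windows, whereas 5.13% of the 35116 windows of this length in the table hold it. The windows of S100A10 and S100A11 do not hold these letters. GGGCGG, a GC box, was searched on both strands of the 250 bases before each start and was found in 7 of the 16 windows, each of a different member, against 42.6% of all windows. TGANTCA, the AP-1 site, was found in the same way in 2 of the 16 windows, those of S100A3 and of 1 start of S100A2, and 6.57% of all windows hold it. For S100A13 and S100A8 the window printed is the 1 of 3 that holds TATAA, and which start these cells use was not tested. TATAA was found before some members that rose and before some that did not, and its part in the response was not tested. TATAA stood before S100A4 and S100A6, which rose, and before 1 of 3 starts of S100A13, which did not pass the test. It also stood before 1 of 3 starts of S100A8 and before S100A9, which had no reads. Of the members without it, S100A10 rose, and S100A2, S100A3, S100A11 and S100A16 were not called.

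Values are normalized counts, that is the reads assigned to a gene divided by the size factor of its library. The libraries held between 52625492 and 87454509 assigned reads, a single read counted for 0.818 to 1.25 normalized counts depending on the library, and 3 reads were taken as the limit that a count of 0 allows, for counting error only. A log2 fold change is on the log2(value + 1) scale, is si-NEK2 against si-CTRL, and comes with its standard error (SE). The thresholds of the methods were kept. A gene is called regulated when it changed at least 1.5-fold with a limma p-value not above 0.05, and p-values adjusted by Benjamini and Hochberg over all 18717 genes tested are given beside. Markers of a mesenchymal line were present (VIM between 134282 and 173162 normalized counts in every library), CDH1, EPCAM, ESR1 and PGR had at most 15.2 normalized counts, and ERBB2 (2455 to 4085) and KRT18 (23195 to 25601) were present although the line is classed as triple negative. The library si-CTRL replicate 1 stood apart from the other si-CTRL libraries, with a chi-square per degree of freedom over genes of 75.8 and 79.6 against them, whereas the other pairs within a group gave 9.16 to 26.6.

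Of the 8 members that were tested, 3 rose after NEK2 silencing, namely S100A4, S100A10 and S100A6, where 8.23% of all genes tested were regulated and higher. No member was regulated and lower in limma, edgeR or DESeq2, where 14.3% of all genes were in limma, although 1 member, S100A16, was lower at an unadjusted p under 0.05. In either direction the calls were 3 of 8 members and 22.5% of all genes. An adjusted p of at most 0.05 at any fold change was reached by 5 of the 8 (4 higher, 1 lower) and by 43.1% of all genes. The groups did not overlap for 6 of the 8 and for 55% of all genes. The median log2 fold change was 0.39 over the 8 members and 0.01 over all genes. In bulk RNA, fewer cells with a transcript and less RNA per cell cannot be told apart.

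**Figure D1:**
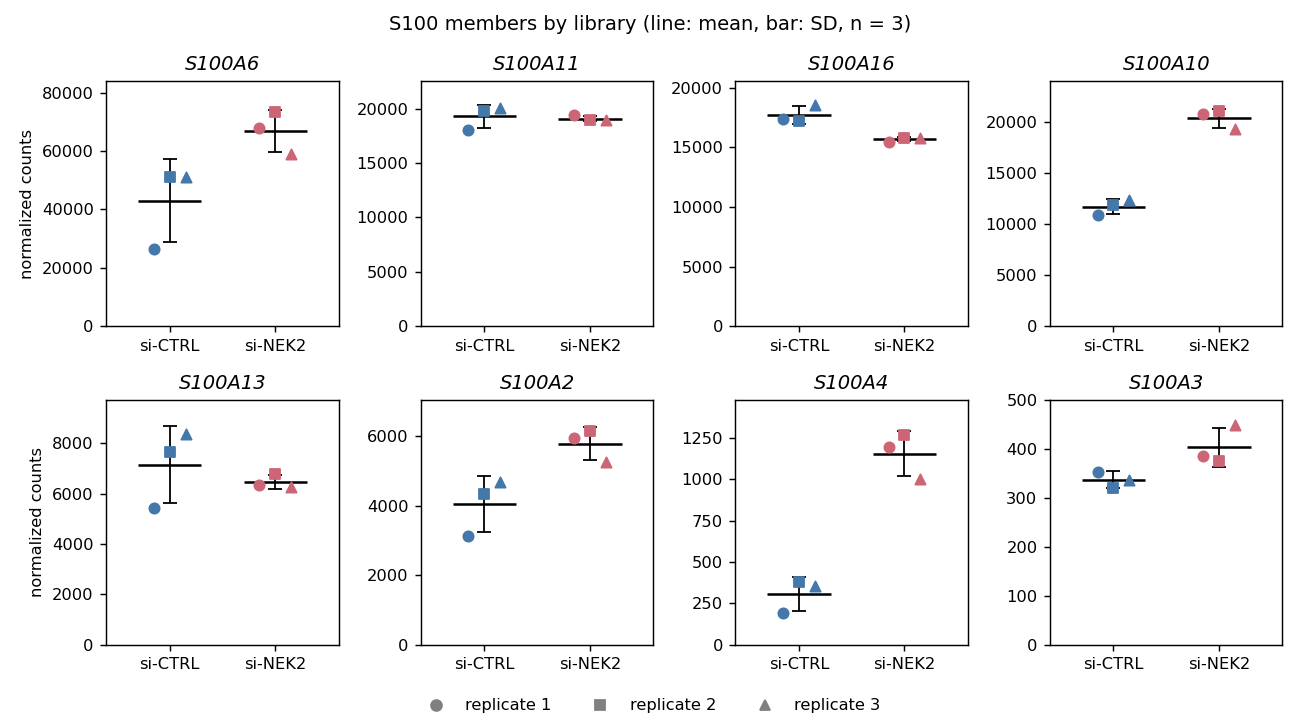
Normalized counts of the 8 tested S100 genes in each of the 3 si-CTRL (blue) and 3 si-NEK2 (red) libraries, with a separate axis from 0 for each gene. Lines are means and bars the SD. S100A4, S100A10 and S100A6 lie higher in every si-NEK2 library, S100A11 and S100A13 overlap, and si-CTRL replicate 1 is the lowest of the 6 for S100A4, S100A6, S100A2, S100A13, S100A10 and S100A11.

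S100A4, also known as metastasin, binds the heavy chain of nonmuscle myosin IIA and is a marker of mesenchymal and motile cells. The gene (GSHG0002545, chromosome 1 from 153516095 to 153518282, hg19, minus strand) was at 190.0, 377 and 354 normalized counts in si-CTRL replicates 1, 2 and 3. In si-NEK2 replicates 1, 2 and 3 it was at 1196, 1267 and 1003. All si-NEK2 libraries thus lay far above all si-CTRL libraries, and si-CTRL replicate 1 was the lowest of the 6. These values rest on 152, 389 and 372 reads in si-CTRL and on 1461, 1402 and 940 reads in si-NEK2. The mean rose 3.77-fold, from 306.8 ± 102 (SD, n = 3) to 1155 ± 137 (SD, n = 3) normalized counts. The log2 fold change was 1.97 (SE 0.24, adjusted p = 0.00029 in limma), which ranks 73 from the top among the 18717 genes, and it stayed between 1.65 and 2.14 without any 1 library. The lowest value, 1.65, was the one without si-CTRL replicate 1. The row overlaps 1 row without a symbol, with a mean of 13.8 normalized counts, which also overlaps S100A3.

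S100A10, or p11, has lost calcium binding and forms a stable complex with annexin A2 at the plasma membrane, where it takes part in plasminogen activation. The gene (GSHG0002520, from 151955387 to 151966714, minus strand) had 10880, 11880 and 12355 normalized counts in the si-CTRL libraries. It had 20789, 21063 and 19293 in the si-NEK2 libraries, so that the lowest si-NEK2 library was well above the highest si-CTRL library. The mean rose 1.74-fold, from 11705 ± 753 (SD, n = 3) to 20382 ± 952 (SD, n = 3), with a log2 fold change of 0.80 (SE 0.07, adjusted p = 6.28e-05 in limma). Leaving out single libraries gave 0.75 to 0.84. Of the regulated members it was thus the one whose value moved least between libraries.

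S100A6, or calcyclin, binds CACYBP, a component of ubiquitin ligase complexes, and the co-chaperone SUGT1. The gene (GSHG0002543, from 153507076 to 153508717, minus strand) had 26521, 51215 and 51126 normalized counts in si-CTRL and 67949, 73460 and 59179 in si-NEK2. The groups did not overlap, and si-CTRL replicate 1 lay far below its 2 companions. The mean rose 1.56-fold, from 42954 ± 14231 (SD, n = 3) to 66863 ± 7202 (SD, n = 3), with a log2 fold change of 0.70 (SE 0.23, adjusted p = 0.0364 in limma). Without si-CTRL replicate 1 the log2 fold change was 0.38 (adjusted p = 0.00281 in limma), under the fold change of 1.5, and scaling each library to an equal total or by quantiles gave 0.57 and 0.51, also under it. Over all alternatives its adjusted p ranged from 0.00281 to 0.12. The size of the S100A6 difference, and with it the call, therefore rested on 1 library and on the scaling, while its direction did not.

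S100A2 is a mostly nuclear S100 protein that binds p53 and is often lost in breast tumours. The gene (GSHG0002547, from 153533579 to 153538306, minus strand) had 3121, 4333 and 4678 normalized counts in si-CTRL and 5958, 6142 and 5249 in si-NEK2. Every si-NEK2 library was above every si-CTRL library, and the means were 4044 ± 818 (SD, n = 3) and 5783 ± 471 (SD, n = 3). The log2 fold change of 0.53 (SE 0.14, adjusted p = 0.0149 in limma) corresponds to 1.43-fold between the means, so that S100A2 was not called. It passed 1.5-fold when si-CTRL replicate 2 (0.59) or 3 (0.65) or si-NEK2 replicate 3 (0.60) was left out, and was lowest, at 0.36, without si-CTRL replicate 1.

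S100A3 is a cysteine-rich, zinc-binding member best known from hair cuticle cells, and its gene (GSHG0002546, from 153519808 to 153521734, minus strand) is the direct neighbour of S100A4. It had 354, 320 and 337 normalized counts in si-CTRL and 385, 375 and 449 in si-NEK2. The groups did not overlap but came close, since si-CTRL replicate 1 and si-NEK2 replicate 2 differed little. The means were 337 ± 17.0 (SD, n = 3) and 403 ± 40.1 (SD, n = 3), with a log2 fold change of 0.26 (SE 0.11, adjusted p = 0.09 in limma, 0.0181 to 0.385 over the alternatives). S100A3 and S100A4, which had similar si-CTRL means, thus differed widely after silencing.

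S100A11, or calgizzarin, is the partner of annexin A1 at membranes. Its gene (GSHG0002521, from 152004982 to 152009511, minus strand) had 18070, 19809 and 20039 normalized counts in si-CTRL and 19379, 18953 and 18940 in si-NEK2. The ranges overlapped, with means of 19306 ± 1076 (SD, n = 3) and 19091 ± 250 (SD, n = 3). The log2 fold change was -0.01 (SE 0.06, adjusted p = 0.872 in limma). Its sign turned with upper quartile scaling (0.0207) and without si-CTRL replicate 2 (0.0046) or 3 (0.0129).

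S100A13 is required for the release of FGF1 and interleukin 1 alpha, which leave the cell without a signal peptide. Its gene (GSHG0002550, from 153591284 to 153606568, minus strand) had 5432, 7644 and 8392 normalized counts in si-CTRL and 6332, 6783 and 6269 in si-NEK2, where the si-NEK2 libraries lay inside the si-CTRL range. The means were 7156 ± 1539 (SD, n = 3) and 6461 ± 280 (SD, n = 3), with a log2 fold change of -0.12 (SE 0.14, adjusted p = 0.52 in limma). Without si-CTRL replicate 1, which was the lowest of all 6, it was -0.31 (adjusted p = 0.00165 in limma). The S100A13 row overlaps the row of S100A1 on the other strand and that of CHTOP (mean of 3039 normalized counts), and since the strand setting of the counting is not given, shared reads make its level uncertain.

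S100A16, a widely expressed member with an atypical calcium-binding site, was the only member with an adjusted p of at most 0.05 and a lower value after silencing. Its gene (GSHG0002548, from 153579355 to 153585644, minus strand) had 17389, 17239 and 18558 normalized counts in si-CTRL and 15481, 15803 and 15829 in si-NEK2. All si-NEK2 libraries were below all si-CTRL libraries by a small margin, with means of 17729 ± 722 (SD, n = 3) and 15704 ± 194 (SD, n = 3). The log2 fold change was -0.17 (SE 0.06, adjusted p = 0.0411 in limma), far under the fold change of 1.5. With the alternatives tried, the adjusted p ranged from 0.00309 to 0.133 and the value from -0.31 to -0.14.

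S100A8 (GSHG0002541, from 153362508 to 153395059, minus strand) and S100A9 (GSHG0000989, from 153330329 to 153333503, plus strand) encode the chains of calprotectin, the abundant calcium and zinc-binding complex of neutrophils and inflamed epithelia. Both were listed at 0 in all 6 libraries, that is with 0 reads, which allows up to 2.46 to 3.75 normalized counts in a library. Neither passed the filter and neither was tested. Leukocyte markers were low as well, with a summed level of 8 genes between 157 and 221 normalized counts in si-CTRL and between 81.1 and 103 in si-NEK2. CSF3R and MPO were at 0 in every library, and the sum came mostly from ITGAM and CSF1R, which both fell (log2 fold change -0.71 and -2.19, adjusted p = 0.0429 and 0.000345 in limma). These were 2 of the 3 markers tested, where 14.3% of all genes tested were regulated and lower. PTPRC, also tested, was not regulated (0.68, adjusted p = 0.479 in limma).

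**Figure D2:**
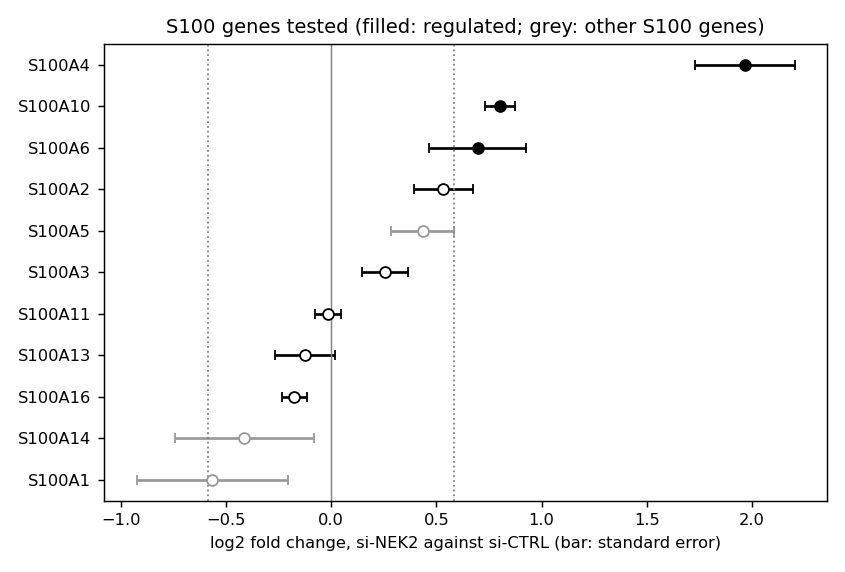
Log2 fold change, si-NEK2 against si-CTRL, of the 8 tested members (black) and the 3 other tested S100 genes (grey), with SEs from limma, n = 3 per group. Dotted lines mark a fold change of 1.5 in either direction. Filled points, S100A4, S100A10 and S100A6, are regulated, and the other S100 genes lie inside the lines.

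The library si-CTRL replicate 1 touched the members unequally. Against the mean of the other 2 si-CTRL libraries, its log2 level was lower by 0.95 for S100A6 and by 0.94 for S100A4, and 3.03% and 3.15% of all genes tested deviated further downwards. S100A13 (-0.56) and S100A2 (-0.53) were also low, whereas S100A10 (-0.16), S100A11 (-0.14), S100A16 (-0.04) and S100A3 (0.11) were not far from the others. The 5th to 95th percentile of all genes spanned -0.75 to 0.56. For the 945 genes of up to 1 kb of exon, which include S100A4 and S100A6, the median was -0.10 and this span -1.004 to 0.633, against 0.05 and -0.44 to 0.49 for the 6000 genes over 4 kb. S100A4 and S100A6 thus lay low but inside the span of genes of their length. The part of transcript length in these results was not tested.

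**Figure D3:**
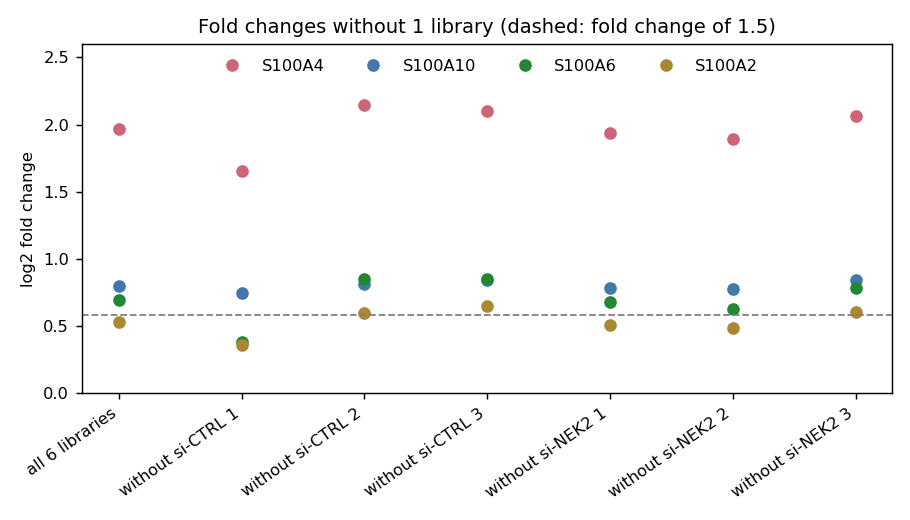
Log2 fold change of S100A4, S100A10, S100A6 and S100A2 in all 6 libraries and after leaving out each library in turn (limma). The dashed line is a fold change of 1.5. S100A4 and S100A10 stay above it throughout, S100A6 drops to 0.38 without si-CTRL replicate 1, and S100A2 lies on either side of it.

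Since each gene's reads come from the same library, the ratio of 2 members needs no scaling between libraries. Such ratios were chosen after the values were seen and are given without a test. The ratio of S100A4 to S100A6 was 0.00716, 0.00736 and 0.00692 in si-CTRL and 0.0176, 0.0172 and 0.0169 in si-NEK2, so that it was nearly the same in the libraries of a group, si-CTRL replicate 1 included, and 1.27 higher on the log2 scale after silencing. The ratio of S100A10 to S100A11 was 0.602, 0.600 and 0.617 in si-CTRL and 1.07, 1.11 and 1.02 in si-NEK2. These are reads not divided by length, and per kilobase S100A10 stayed below S100A11 after silencing (means of 16202 and 32139). The ratio of S100A6 to S100A16 was 1.53, 2.97 and 2.75 in si-CTRL and 4.39, 4.65 and 3.74 in si-NEK2, and here si-CTRL replicate 1 was far from its group. The neighbours S100A4 and S100A3 had ratios of 0.537, 1.18 and 1.05 in si-CTRL and 3.10, 3.38 and 2.23 in si-NEK2. S100A4 and S100A6, which both rose, thus did not rise by the same factor in these libraries, and no ratio of S100A10 to either was taken.

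**Figure D4:**
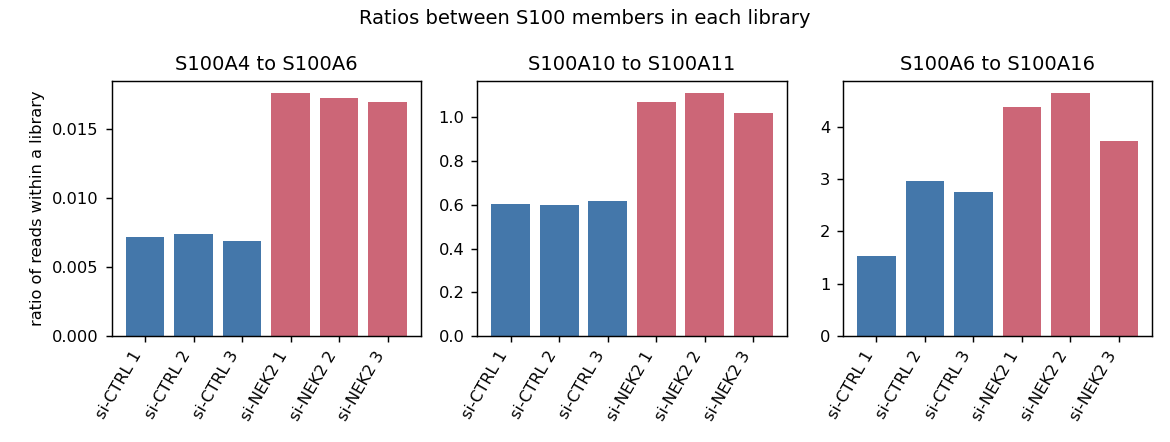
Ratio of the reads of S100A4 to S100A6, of S100A10 to S100A11 and of S100A6 to S100A16 in each library, on axes that start at 0. The first pair of ratios separates the groups with little spread within them, and the third shows si-CTRL replicate 1, at 1.53, apart from the other si-CTRL libraries.

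Levels can be compared between genes only per length, so normalized counts were divided by the exon length of each gene in GENCODE v29. This length joins all exons of a gene in the basic annotation, and which transcripts these cells use was not tested. The level of S100A13 is uncertain from the overlaps given above. Per kilobase, the mean si-CTRL level fell from S100A6 (50713) through S100A11 (32502), S100A16 (10991), S100A10 (9304), S100A13 (7804) and S100A2 (2581) to S100A4 (371) and S100A3 (353). S100A6 and S100A11 overlapped in si-CTRL (31312 to 60466 and 30421 to 33736), as did S100A10 (8648 to 9821) and S100A13 (5923 to 9152), and S100A4 (230 to 456) and S100A3 (335 to 370), so that the order within these pairs is not resolved. After silencing, S100A10 (16202) stood above S100A16 (9736), and S100A4 (1397) stood clear of S100A3 (422) but remained below S100A2 (3691). S100A6 (78941) was then far above S100A11 (32139). S100A4, with the largest fold change of the members, was thus also 1 of the least abundant of those tested. The 10 members took 0.125, 0.174 and 0.176% of all assigned reads in si-CTRL and 0.192, 0.200 and 0.177% in si-NEK2, means of 0.158 ± 0.0289% and 0.190 ± 0.0118% (SD, n = 3), which an exact two-sided permutation test gave p = 0.1, the smallest value that 3 against 3 libraries allow.

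Genes with the pattern most like that of S100A4, by the root mean square distance of centred log2 values over the 6 libraries, included WFDC21P (distance 0.12) and S1PR4 (0.18), a sphingosine 1-phosphate receptor. WFDC21P had 259, 656 and 591 normalized counts in si-CTRL and 1794, 1876 and 1493 in si-NEK2. Like S100A4, it was lowest in si-CTRL replicate 1. S1PR4 had only 3.75, 9.69 and 11.4 normalized counts in si-CTRL and 39.3, 32.5 and 27.7 in si-NEK2, so its pattern rests on few reads. For S100A16, the member with the lowest log2 fold change, the 3 closest genes included MRPL49 (0.02), a protein of the mitochondrial ribosome, and BIRC2 (0.02), an inhibitor of apoptosis. A common pattern over 6 libraries is a description only.

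The other S100 genes were mostly silent. Of the 11 listed, 5 were at 0 in every library (S100A7, S100A7A, S100A7L2, S100A12 and S100B), S100G, S100P and S100Z stayed under the filter, and 3 were tested. None of the 3 was regulated in limma, edgeR or DESeq2, and 1 of them, S100A5, had an unadjusted p under 0.05. S100A5, next to S100A6 and S100A4 in the cluster, had 70.0, 80.4 and 74.2 normalized counts in si-CTRL and 98.2, 99.4 and 107 in si-NEK2, without overlap (log2 fold change 0.43, SE 0.15, adjusted p = 0.0425 in limma). S100A1 (-0.56, adjusted p = 0.243) and S100A14 (-0.41, adjusted p = 0.346) had means under 40 normalized counts in both groups, and the median of the 3 was -0.41. Quantile scaling called S100A5, leaving out si-CTRL replicate 2 called S100A14 and leaving out si-CTRL replicate 3 called S100A1.

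In the interval that holds the S100A genes (chromosome 1 from 151955387 to 153606568, hg19, 1.651 Mb), 11 of 17 S100A genes listed were expressed at a level that could be tested. Of 46 other genes with a symbol, mostly those of the skin barrier, 33 were at 0 in every library and 3 were tested. IVL and TCHH encode the cornified envelope protein involucrin and the hair follicle protein trichohyalin. These 2 of the 3 tested were regulated and lower, where 14.3% of all genes tested were. TCHH had 124, 107 and 114 normalized counts in si-CTRL and 22.9, 27.1 and 38.4 in si-NEK2 (log2 fold change -1.95, SE 0.22, adjusted p = 0.000221 in limma). IVL had 80.0, 56.2 and 54.2 and then 6.55, 1.81 and 2.13 (-3.97, SE 0.43, adjusted p = 0.000178 in limma), and since its si-NEK2 libraries held only a few reads the fitted size depends on the pseudocount. FLG-AS1 was not regulated (-0.29, adjusted p = 0.226). All 3 lie between S100A11 and S100A9 in the cluster, with S100A10 on one side and S100A4 and S100A6 on the other. Of 6 keratinocyte markers, LOR, SPRR1B and KRT1 were at 0 in every library. The summed level of the 6 was 854 to 1247 normalized counts in si-CTRL and 1287 to 1609 in si-NEK2, nearly all of it from KRT10 (774 to 1191 and 1278 to 1602), which was not regulated (log2 fold change 0.50, adjusted p = 0.04 in limma).

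All 21 genes on a list of S100 partners were expressed and tested, and 5 were regulated, 2 higher and 3 lower, against 8.23% and 14.3% of all genes. The median log2 fold change was 0.10. ANXA1, the annexin partner of S100A11, rose from 36076, 40807 and 45815 normalized counts to 65245, 71339 and 66234 (0.73, SE 0.09, adjusted p = 0.000344 in limma). SUGT1, a partner of S100A6, rose from 2862, 3295 and 3388 to 5126, 5078 and 5042 (0.68, SE 0.08, adjusted p = 0.000226 in limma). In both, every si-NEK2 library was above every si-CTRL library, but SUGT1 lost its call with equal total scaling and ANXA1 with quantile scaling.

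Among the partners that fell, IL1A, an S100A13 cargo, went from 1429, 1047 and 1339 normalized counts to 117, 154 and 127 (log2 fold change -3.25, SE 0.15, adjusted p = 4.16e-06 in limma). FGF1, the other cargo of S100A13, fell from 1037, 838 and 982 to 534, 530 and 626 (-0.76, adjusted p = 0.000841 in limma). PPP5C, a phosphatase that S100 proteins can activate, fell by 0.67 on the log2 scale (adjusted p = 0.000588 in limma). Thus both S100A13 cargoes on the list were lower in every si-NEK2 library, while S100A13 itself did not pass the test. Without si-CTRL replicate 1 PPP5C was not called.

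ANXA2, MYH9 and CACYBP, partners of S100A10, S100A4 and S100A6, were not called. ANXA2, which binds S100A10, had 80201, 80076 and 88003 normalized counts in si-CTRL and 97524, 102792 and 102400 in si-NEK2 (log2 fold change 0.29, adjusted p = 0.0078 in limma), under the fold change of 1.5. The ratio of S100A10 to ANXA2 reads was 0.136, 0.148 and 0.140 in si-CTRL and 0.213, 0.205 and 0.188 in si-NEK2. MYH9, the myosin that S100A4 binds, gave a log2 fold change of 0.00 (SE 0.10, adjusted p = 0.979 in limma) with overlapping groups. ANXA5 gave 0.34 (adjusted p = 0.00808 in limma) and, named after its value was seen, the S100A6 partner CACYBP gave 0.54 (SE 0.06, adjusted p = 0.000256 in limma), just under the fold change of 1.5. ANXA6, also on the list and named after its value was seen, came as close to that limit in the other direction (-0.54, SE 0.07, adjusted p = 0.000282 in limma).

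Among 10 receptor genes, 9 were tested and 1 was regulated, against 22.5% of all genes, namely ALCAM, an adhesion molecule of the immunoglobulin family, which fell from 11217, 9770 and 9776 normalized counts to 6461, 6531 and 6996 (log2 fold change -0.62, SE 0.08, adjusted p = 0.000303 in limma). The call was lost without si-CTRL replicate 1 and with upper quartile scaling. The others with the highest mean counts, not divided by length, were CD68 (0.15), BSG (-0.11) and NPTN (0.04). They did not reach an adjusted p of at most 0.05 in limma. Overlaps of the receptor rows with other rows were not examined. AGER, the best known S100 receptor, was scarce, with 125, 105 and 110 normalized counts in si-CTRL and 94.1, 88.6 and 105 in si-NEK2 (-0.24, adjusted p = 0.233 in limma). The median of the 9 was 0.04.

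**Figure D5:**
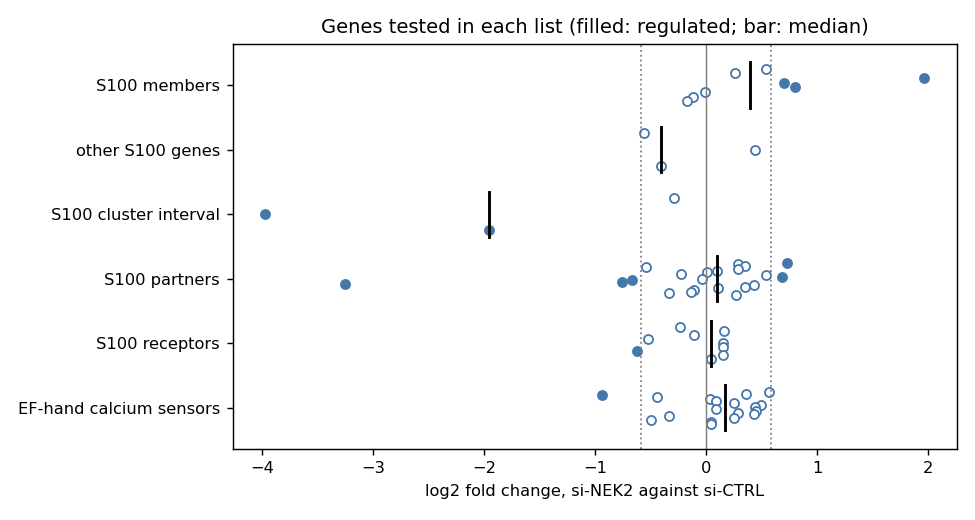
Log2 fold change, si-NEK2 against si-CTRL, of every tested gene in each list, 1 point per gene, with the median as a black bar. Filled points are regulated and dotted lines mark a fold change of 1.5. The members reach furthest to higher values (S100A4 at 1.97) with a median of 0.39. The medians of partners (0.10), receptors (0.04) and other EF-hand sensors (0.17) lie near 0. Those of the other S100 genes (-0.41, 3 tested) and of the cluster interval (-1.95, 3 tested) lie below 0.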

How the data were processed

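The authors deposited 1 gene table for the 6 libraries, whose values (a signal, not whole counts) are reads per gene over a size factor from DESeq2, on FAST DB gene models with positions in hg19. The submitters' processing notes name STAR 2.4.0, SAMtools, Picard, FastQC and DESeq2. The counter and its strand setting are not given in the sources used here, although the library kit was stranded. Within 0.001, 100% of the deposited values were whole reads, which were recovered.

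Groups came from the sample records. Of 74852 genes, 41525 were at 0 in every library, and 18717 whose mean over the 6 libraries reached 10 normalized counts were tested with limma 3.58.1 (R 4.3.3) on log2(value + 1), using lmFit and a trended eBayes. The members, the lists and the rule for named genes were chosen with earlier results of these data known. The rule names all members, every regulated gene of a list and the 3 others with the highest mean counts. It also names the genes most like the member with the highest and the one with the lowest fold change. Some genes under this rule are not reported here. Exon lengths are from GENCODE v29 (GRCh38) and promoters from RefSeq, matched by symbol. Columns of 6 samples were used and 0 columns belonged to no sample.

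As alternatives, the pseudocount was set to 0.1 or 5, the filter was dropped or raised to 50, libraries were scaled by upper quartile, to equal totals or by quantiles, eBayes was run untrended, and the replicate number was added as a block. The recovered reads were tested with edgeR 4.0.16 (TMM, quasi-likelihood) and with DESeq2 1.42.0. Calls were also made by adjusted p and at a fold change of at least 2, and each library was left out in turn. The fit was tested on simulated data.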

Additional observations from a re-analysis of the deposited data

How the results depend on the processing

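The member count of 3 regulated genes, all higher, became 1 at a fold change of at least 2 and 2 with equal total or quantile scaling, was 2 to 4 with a library left out, and was 3 under the others. S100A6 gave 0.57 with equal total scaling and 0.51 with quantile scaling (adjusted p of 0.0778 and 0.12 in limma), and 0.38 to 0.85 with a library left out. S100A2 gave 0.36 to 0.65 and S100A13 -0.31 to 0.0031 with a library left out. S100A11 was 0.0207 with upper quartile scaling and -0.0617 to 0.0129 with a library left out. Under the 17 alternatives that kept both thresholds, S100A4 (1.65 to 2.14) and S100A10 (0.66 to 0.84) stayed regulated. At a fold change of at least 2, only S100A4 of the members was called. Under the same 17 alternatives S100A3 (0.13 to 0.42) and S100A16 (-0.31 to -0.14) kept their direction and stayed under the fold change of 1.5. The limma p of these latter genes did cross 0.05. For S100A3 it went from 0.045 to 0.275 with equal total scaling and to 0.0689 with the replicate block. It was 0.0504 to 0.173 without si-CTRL replicate 2 or 3 or any 1 of the si-NEK2 libraries, and DESeq2 gave S100A3 a p of 0.0604. For S100A16 the limma p went from 0.0169 to 0.0504 with upper quartile scaling. It was 0.0548 to 0.0668 without si-CTRL replicate 3 or si-NEK2 replicate 1 or 2. The other S100 genes went from 0 calls to 1 with quantile scaling and 0 to 1 with a library left out. The partners went from 5 to 1 at a fold change of at least 2. The receptors went from 1 to 0 with upper quartile scaling or a fold change of at least 2, and were 0 to 1 with a library left out. The cluster interval went from 2 to 1 at a mean of at least 50, which removed IVL, and to 3 without the filter. The EF-hand sensors went from 1 to 2 with upper quartile or equal total scaling, to 3 with quantile scaling and to 0 at a fold change of at least 2, and from 1 to 2 with a library left out. The causes were not tested. With equal totals the median over all genes was -0.11 in place of 0.01 and the calls were 942 higher and 3474 lower in place of 1541 and 2672, and relative to these medians S100A6 was at 0.68 in both, S100A4 at 1.95 in both and S100A10 at 0.79 in both. With quantile scaling the same differences from the median were 0.46, 2.01 and 0.61. The difference in the share of reads on the members, 0.0316 percentage points, was 0.0149 to 0.0405 with a library left out.

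The deviations of same-numbered libraries from their group means correlated at -0.091, 0.0469 and -0.147. These values show no shared deviation by replicate number, but they cannot tell whether the cultures were prepared in matched sets. With the number as a block, S100A4 was 1.97 (adjusted p = 0.00164 in limma), S100A10 was 0.80, S100A6 was 0.70 (adjusted p = 0.0383) and S100A16 was -0.17 (adjusted p = 0.0959), and the same 3 members were regulated. Each member sat in 1 row, so that summing rows gave no other value. Depth limits S100A8 and S100A9, whose 0 reads allow a low level, and p-values rest on 3 libraries a group.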

Other observations

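Calcium sensors with EF-hands outside the S100 family were followed on a separate list. Of 20 genes 18 were tested and 1 was regulated, CALM3, against 22.5% of all genes, and the median log2 fold change was 0.17. CALM3, a calmodulin gene, fell from 27786, 25744 and 24956 normalized counts in si-CTRL to 13530, 13543 and 13769 in si-NEK2 (log2 fold change -0.94, adjusted p = 1.71e-05 in limma). All si-NEK2 libraries lay below all si-CTRL libraries. CALM2 gave 0.36 (adjusted p = 0.0787 in limma) and the reticular sensor CALU 0.45 (adjusted p = 0.000991 in limma). CALM2, like S100A6 and S100A4, was lowest in si-CTRL replicate 1, with 29742 normalized counts against 44184 and 45605 in the other si-CTRL libraries.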
